A study of Mus musculus with 2 samples.

Results

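A set of 38 interferon-induced genes was followed across the cell clusters and the ages of the retinal endothelium. The genes were listed by symbol, and all 38 had a row in both count tables, which held 22687 gene symbols at P6 and 21736 at P15. They were chosen by their counts in these libraries, being the interferon-induced genes that led a small P6 cluster labelled Venous, so the values of that cluster against the rest of P6 describe the choice and are not a finding.

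The libraries came from the retinal tissue of wild-type C57BL/6 mice at postnatal day 6 (P6) and postnatal day 15 (P15), and both groups carry no transgene, deletion or treatment. Sorting by FACS kept cells that carry CD31, found on endothelium, and lack CD45, found on blood cells, and 1 droplet library was sequenced for each age. The age of a library and anything else that set the pups apart, such as handling or sex, therefore cannot be told apart. The labels do not say how many pups were pooled or which cell came from which pup.

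Interferons are secreted alarm proteins of antiviral defence. Type I interferons bind the receptor of Ifnar1 and Ifnar2, and type II interferon binds the receptor of Ifngr1 and Ifngr2. Both receptors act through JAK kinases and the transcription factors these activate, which switch on a broad group of genes whose proteins sense foreign nucleic acid, block viral replication or tag other proteins. Endothelial cells express both receptors and are known to respond to both kinds of interferon.

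A pair of short DNA motifs carries much of this response. The interferon-stimulated response element (ISRE) is known from the type I response and was searched as GAAA, any 2 bases and GAAA, and the gamma-activated site (GAS) is known from the type II response and was searched as TTCNNNGAA, each on both strands. RefSeq start sites on GRCm38.p6 were given for 31 of the 38 genes. In the 250 bases before the start, the ISRE letters were present in 13 of the 31 (41.9%) and in 3.46% of all 27025 symbols with such a sequence. The GAS letters were present in 6 of the 31 (19.4%) and in 8.13% of all symbols. A match is a run of letters and not a measured binding site. The bases that end at the start site are printed below for 9 genes, picked as examples of the letters in a row, in both forms and alone. Gbp7 and Irgm1, not printed, also held more than 1 match. They read 5′ to 3′ on the strand of the gene, and capitals mark the ISRE or GAS letters.
Isg15: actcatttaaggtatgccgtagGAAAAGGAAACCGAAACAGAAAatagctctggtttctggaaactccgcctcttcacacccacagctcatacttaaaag
Ifit1: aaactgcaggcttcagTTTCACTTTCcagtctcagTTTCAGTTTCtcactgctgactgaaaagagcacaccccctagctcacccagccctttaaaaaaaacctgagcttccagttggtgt
Ifit3: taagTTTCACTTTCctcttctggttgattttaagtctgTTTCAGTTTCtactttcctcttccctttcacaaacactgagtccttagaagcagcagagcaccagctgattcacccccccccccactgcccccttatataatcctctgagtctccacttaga
Ifit3b: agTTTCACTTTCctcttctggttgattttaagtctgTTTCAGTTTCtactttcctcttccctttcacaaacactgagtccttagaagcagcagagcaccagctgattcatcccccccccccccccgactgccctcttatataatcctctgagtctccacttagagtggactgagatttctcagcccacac
Gbp2: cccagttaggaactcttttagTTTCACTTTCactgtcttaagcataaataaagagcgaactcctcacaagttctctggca
Gbp3: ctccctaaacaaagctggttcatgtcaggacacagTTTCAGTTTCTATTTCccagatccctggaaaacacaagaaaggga
Igtp: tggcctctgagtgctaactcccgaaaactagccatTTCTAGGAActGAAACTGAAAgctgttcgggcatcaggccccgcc
Bst2: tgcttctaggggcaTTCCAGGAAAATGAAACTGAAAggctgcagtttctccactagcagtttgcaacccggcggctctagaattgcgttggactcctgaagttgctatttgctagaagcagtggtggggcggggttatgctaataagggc
Irf1: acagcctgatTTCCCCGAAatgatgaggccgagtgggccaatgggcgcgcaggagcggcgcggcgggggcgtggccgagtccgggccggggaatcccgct
The Isg15 sequence (chr4:156200819-156200918, minus strand) holds 3 ISRE matches in a row that share bases. The sequences of Ifit1 (chr19:34640769-34640888), Ifit3 (chr19:34583369-34583528) and Ifit3b (chr19:34607767-34607956) hold 2 each, as do those of Gbp3 (chr3:142559964-142560043) and Bst2 (chr8:71537473-71537622, minus strand). Bst2 and Igtp (chr11:58199476-58199555) have a GAS beside their ISRE. Gbp2 (chr3:142620583-142620662) has 1 ISRE, and Irf1 (chr11:53769914-53770013) has 1 GAS and no ISRE match in its window. Ifit3 and Ifit3b are near copies: 61.8% of the stretches of 31 bases in the Ifit3 transcripts also occur in those of Ifit3b, so the split of reads between them is uncertain.

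Cells were kept when they had 200 to 3500 genes, at most 5% mitochondrial counts and no count of Hbb-bt, Neurod1 or Cd63, which left 1424 cells at P6 and 1644 at P15. The median depth was 4985.5 unique molecular identifiers (UMIs, 1 per captured mRNA) at P6 and 4214.5 at P15, and 7 barcodes occurred in both libraries. The study's cluster labels cover 1560 P6 cells, and the copy used here holds labels for 438 P15 cells only. All 7 endothelial markers searched had UMIs in both libraries. The 8 blood cell markers summed to 3.27 CPM (counts per 1000000 UMIs of the cells pooled) at P6 and 9.77 at P15, the 5 pericyte markers to 10.6 and 264, the 5 retinal neuron markers to 8.11 and 40.6 and the 2 haemoglobin genes of red cells to 4.58 and 38.3. The 5 glia markers summed to 369 and 1227, of which Glul, a glutamine synthetase gene, gave 366 and 1161. These lists were thus higher at P15, and their part in the age differences was not tested. With 1 library for each age there are no replicates. All intervals are 95% intervals of the counting error alone, and no difference below was tested.

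From P6 to P15 most of the 38 genes were at a higher level, while the 2 that gave most UMIs were lower. The summed level was 2395 CPM at P6 (2360 to 2430) and 2798 at P15 (2760 to 2837), a ratio of 1.17 (1.15 to 1.19). Ifitm3 and Bst2 together gave 60.6% of these UMIs at P6 and 43.6% at P15. Without them, the other 36 genes had 944 CPM at P6 and 1577 at P15, a ratio of 1.67 (1.62 to 1.72). At P15, 20 of the 38 genes were at least 1.5-fold higher, as were 18.8% of the 10972 genes compared, and 3 (Iigp1, Rsad2 and Zbp1) were at least 1.5-fold lower, as were 11.8%. At any size, 32 of the 38 were higher, as were 59.5% of all genes. The counting interval of the ratio lay above 1 for 26 genes, below 1 for 5 and held 1 for 7, a count not made over all genes. The median ratio was 1.54 for the 38 genes and 1.09 for all genes. Without the cells labelled Venous, 25 genes were at least 1.5-fold higher (19.2% of all genes) and 2 lower (11.8%).

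**Figure D1:**
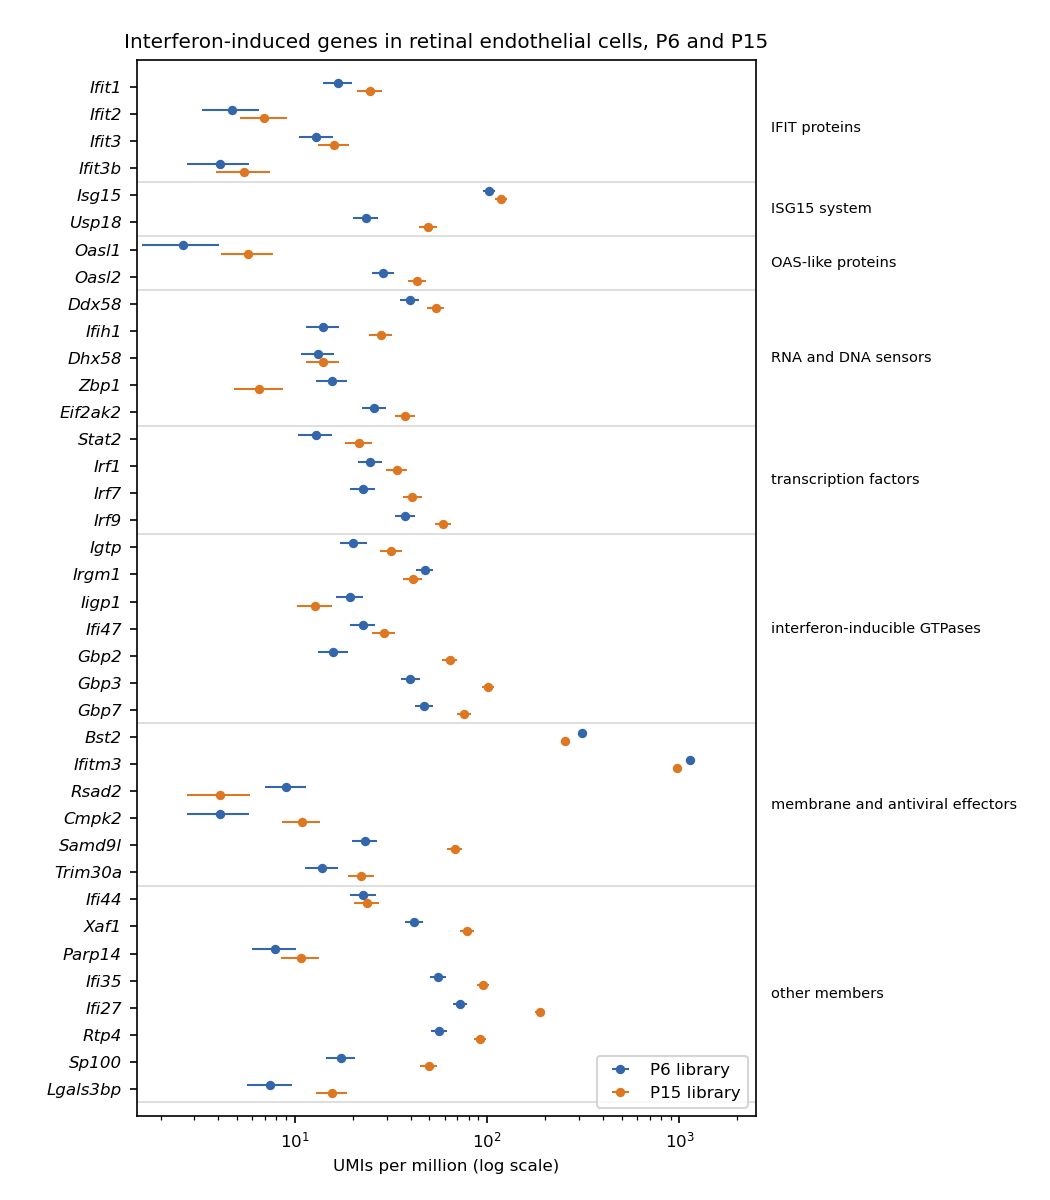
CPM (log scale) of each of the 38 genes over the kept cells of the P6 library (blue, 1424 cells) and the P15 library (orange, 1644 cells), by role. Bars are exact Poisson 95% intervals. Most orange points lie to the right of the blue ones, as for Gbp2 at 15.8 and 63.8, while those of Ifitm3, Bst2, Zbp1, Rsad2, Iigp1 and Irgm1 lie to the left.

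The IFIT proteins bind foreign RNA and hold back its translation. Ifit1 had 16.7 CPM at P6 and 24.6 at P15, a ratio of 1.47 (1.16 to 1.85). Ifit3 had 12.9 and 15.9, with an interval of the ratio that includes 1 (0.93 to 1.62), as had Ifit2 and Ifit3b. None of the 4 reached 1.5-fold over all cells, but without the Venous cells their ratios were between 1.80 and 2.12.

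Isg15 encodes a ubiquitin-like protein that is attached to other proteins, and Usp18 encodes the enzyme that removes it and dampens the receptor. Isg15 had 102 CPM at P6 and 118 at P15 (ratio 1.15, 1.05 to 1.27) and was found in 24.1% and 29.0% of cells. Usp18 had 23.4 and 49.2 (ratio 2.10, 1.75 to 2.53). The inhibitor of the pathway thus differed more between the ages than the modifier it removes. Oasl2, a relative of the oligoadenylate synthetases that sense double-stranded RNA, had 28.8 and 43.3 (ratio 1.5). Its neighbour Oasl1 was also at least 1.5-fold higher at P15, with 62 UMIs in all, the fewest of any member.

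Among the sensors the ages differed in both directions. Ifih1 (MDA5), which binds long double-stranded RNA in the cytosol, had 14.0 CPM at P6 and 27.9 at P15 (ratio 2.0, 1.57 to 2.55). Ddx58 (RIG-I), which binds RNA ends, had 39.6 and 54.0 (ratio 1.36), and the RNA-activated kinase gene Eif2ak2 had 25.9 and 37.6 (ratio 1.45). Zbp1, a sensor of left-handed nucleic acid, had 15.6 and 6.51 (ratio 0.419, 0.293 to 0.590), the smallest ratio of the 38 genes. Dhx58 (LGP2) had 13.2 and 14.0, with an interval that includes 1.

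All 4 transcription factor genes were higher at P15. Irf7, which amplifies type I interferon production, had 22.5 CPM at P6 and 40.8 at P15 (ratio 1.82, 1.5 to 2.20). Stat2 (ratio 1.67, 1.29 to 2.17) and Irf9 (ratio 1.58, 1.36 to 1.84) encode factors that bind the ISRE. Irf1 had 24.6 and 33.9 (ratio 1.38).

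The interferon-inducible GTPases, which attack the membranes around intracellular microbes, included the gene with the largest ratio and one of those lower at P15. Of the guanylate-binding proteins, Gbp2 had 15.8 CPM at P6 and 63.8 at P15, the largest ratio of the 38 genes (4.03, 3.29 to 4.96). It was found in 7.65% and 22.0% of cells. Gbp3 had 39.9 and 101 (ratio 2.54, 2.22 to 2.91), and Gbp7 had 46.9 and 75.7 (ratio 1.61). All 3 genes lie in one stretch of chromosome 3. Of the immunity-related GTPases, Igtp was higher at P15 (20.1 and 31.6, ratio 1.57), whereas Iigp1 was lower (19.4 and 12.8, ratio 0.659, 0.503 to 0.859). Irgm1 had 47.3 and 41.1, with an interval that includes 1 (0.743 to 1.01), and Ifi47 had 22.5 and 29.0 (ratio 1.29).

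The membrane and antiviral effectors held the genes with most UMIs. Ifitm3, which blocks virus entry at endosomes, had 1138 CPM at P6 and 967 at P15 (ratio 0.85, 0.823 to 0.877). Bst2 (tetherin), which holds budding viruses on the cell surface, had 313 and 254 (ratio 0.812, 0.764 to 0.863). Samd9l had 23.0 and 67.8 (ratio 2.95, 2.48 to 3.52), and the ubiquitin ligase gene Trim30a had 13.9 and 22.1 (ratio 1.60). Rsad2 (viperin) and Cmpk2 lie next to each other on chromosome 12, and differed between the ages in opposite directions. Rsad2, with fewer than 100 UMIs in all and named here after its values were seen, had 9.02 and 4.07 (ratio 0.451, 0.284 to 0.702), and Cmpk2 had 4.05 and 10.9 (ratio 2.68, 1.75 to 4.19). Both were rare, with a UMI in 1.46% to 4.38% of the cells of a library.

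Of the remaining 8 genes, 6 were at least 1.5-fold higher at P15 (18.8% of all genes). Sp100, a component of nuclear bodies, had 17.4 CPM at P6 and 49.7 at P15 (ratio 2.86, 2.34 to 3.51), and Ifi27 had 72.4 and 188 (ratio 2.59, 2.35 to 2.87). Ifi27 was found in 27.2% of P6 cells and 49.1% of P15 cells. Xaf1, Ifi35, Rtp4 and Lgals3bp had ratios of 1.89, 1.72, 1.63 and 2.09. Parp14 and Ifi44 had intervals that include 1. After each cell was thinned to 3000 UMIs, 32 of the 38 genes were found in a larger share of cells at P15. These shares were not counted over all genes, of which 59.5% had a higher level at P15 without thinning.

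The difference was also present in the typical cell. Of the 38 genes, the median number with a UMI in a cell was 4 at P6 (highest 31) and 6 at P15 (highest 26). A core of 10 genes (Ifit1, Ifit2, Ifit3, Ifit3b, Oasl1, Oasl2, Rsad2, Ifi44, Usp18, Cmpk2) was absent from 74.4% of P6 cells (72.1% to 76.7%) and 61.0% of P15 cells (58.6% to 63.4%), or from 80.8% and 67.7% of cells thinned to 3000 UMIs. In barcodes with UMIs of Neurod1, a gene of retinal neurons, the core genes had 38.2 CPM at P6 (98 barcodes) and 211 at P15 (17 barcodes), beside 129 and 190 in the kept endothelial cells. RNA from outside the cell and expression by these barcodes cannot be told apart here.

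The spread over the cells was described as well, although genes chosen for leading a small P6 cluster were bound to be uneven at P6. In cells thinned to 3000 UMIs, the variance of a gene over its mean was above 2 for 4 of the 34 genes that could be measured at P6 (Ifit3, Isg15, Iigp1 and Ifitm3) and for 1 of 35 at P15 (Ifitm3), beside 1.54% and 1.56% of all genes. Without the Venous cells 3 genes were above 2 at P6 (Isg15, Iigp1 and Ifitm3) and Ifitm3 alone at P15. Usp18 (1.21 and 1.39) and Irf7 (1.32 and 1.37) had the larger value at P15. Ifit3 had 61.6% of its P6 UMIs in the top 1% of cells and 38.5% of its P15 UMIs. The UMIs of the 10 core genes and of 26 other members were correlated across the thinned cells of a library, which share one depth. The Pearson r was 0.67 at P6 (1245 cells) and 0.50 at P15 (1163 cells), and the Spearman rank correlation was 0.44 and 0.34. Without the Venous cells r was 0.61 and 0.49. Both sets of genes were listed for the same P6 Venous cells, so a positive P6 correlation describes the choice.

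Cells with UMIs of at least 4 core genes were nearly as frequent at both ages but differed in what they expressed. They numbered 49 of 1585 kept or labelled cells at P6 (3.09%, 2.30% to 4.07%) and 53 of 1673 at P15 (3.17%, 2.38% to 4.12%). The class is a range and not a type, since 46 P6 cells and 49 P15 cells had 3 core genes, just below the limit, and 13 and 28 had 4. Of the other 28 genes, which did not choose the cells, 27 were at least 2-fold higher in these cells at P6 (5.47% of all genes), all but Ifi27. All 38 genes were listed for their P6 Venous level, and 25 of these 49 cells were Venous, so the P6 count describes the choice. Among the 24 P6 cells outside the Venous cluster, 26 of 28 were at least 2-fold higher (9.68% of all genes), all but Ddx58 and Ifi27. At P15, 21 of 27 were (3.33% of all genes), or 20 without the Venous cells (3.29%). Isg15 had 778 CPM in these cells and 72.3 in the rest at P6, and 553 and 100 at P15. Irf7 had 157 and 15.6 at P6, and 232 and 32.9 at P15. Iigp1 had 201 and 12.6 at P6, and 116 and 8.22 at P15. Among the P6 cells of this class outside the Venous cluster, Isg15 had 793 and Iigp1 227.

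**Figure D2:**
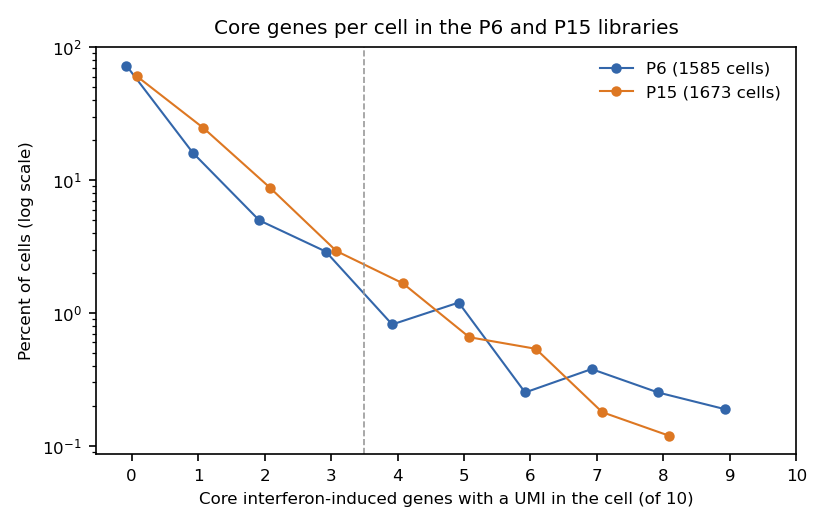
Percent of kept or labelled cells (log scale) by the number of 10 core interferon-induced genes with a UMI, at P6 (blue, 1585 cells) and P15 (orange, 1673 cells). The dashed line marks the limit of 4 genes. P15 has more cells with 1 or 2 core genes, and only P6 has cells with 9, of which there are 3.

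The median MHC class I level of these cells differed between the ages, while their ranges overlapped. The median cell with at least 4 core genes had 8909 CPM of 6 MHC class I genes at P6, against 1248 in the other cells. At P15 it had 2550, against 1729. Such cells spanned 450 to 21759 CPM at P6 and 578 to 8218 at P15. Of them 25 of 49 were Venous at P6 and 2 of 53 at P15, and the part of this mix was not tested. H2-K1, a class I heavy chain, had 1267 and 172 CPM at P6, and 143 and 103 at P15. In the P6 cells of this class outside the Venous cluster, H2-K1 had 1378 CPM, B2m 3912 and H2-D1 2768. In the P15 cells of this class B2m had 820 and H2-D1 1045. The 8 blood cell markers summed to 2.91 CPM in all 49 P6 cells and to 23.9 in all 53 P15 cells. The 5 pericyte markers summed to 2.91 and 488. The part of these markers in the P15 values was not tested.

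In the P6 clusters the 38 genes were highest in Venous cells, the contrast known when the genes were listed. The 42 Venous cells had 9082 CPM of the set (8735 to 9439), 4.34-fold the level of the other labelled cells. Of the 34 genes with enough UMIs, 30 were at least 2-fold higher (4.73% of all genes), and 34 of the 38 had their highest level there. The exceptions were Samd9l, highest in Capillary cells, Parp14, highest in Cap-Arterial cells, and Irf1 and Lgals3bp, highest in Arterial cells. Ifit3 had 239 CPM in Venous cells and 6.41 in the others, and Isg15 had 752 and 78.0. Both were thus far apart, Isg15 being found in 40 of the 42 cells. The 6 venous genes named by the study summed to 1223 CPM in these cells and 1174 in the others. No UMI of the 8 blood cell or 5 pericyte markers was counted in the 42 cells.

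Beyond the Venous cells a second order was seen, with the set high toward the arterial side. At P6 the level was 5385 CPM in the 40 Arterial cells (5066 to 5718) and 4225 in the 162 Cap-Arterial cells (4087 to 4366), against 2054 in Capillary, 2034 in Cap-Venous, 1829 in Stalk, 1762 in Primitive, 1576 in Proliferative and 1462 in Tip cells. Capillary and Cap-Venous cells did not differ beyond their intervals, nor did Stalk and Primitive cells. With Venous cells set aside, 24 of the 38 genes were highest in Arterial and 13 in Cap-Arterial cells, a count not made over all genes. In Arterial cells 20 of 34 genes were at least 2-fold higher than in the other labelled cells (12.1% of all genes), and in Cap-Arterial cells 18 of 34 (5.65%). The Arterial level of the 36 genes other than Ifitm3 and Bst2 was uneven over cells, with a median of 687 CPM, a mean of 2315 and an SD of 3802 over the 40 cells, and 65% of these cells had no core gene. The glia markers were also high there, at 1564 CPM in Arterial and 1592 in Cap-Arterial cells against 339 in all labelled cells but the Venous. Of these markers only Glul was found in Arterial cells, and only Glul and Rlbp1 in Cap-Arterial cells. Their part was not tested. In Primitive cells none of 34 genes was at least 2-fold higher (0.905% of all genes), and 22 were at least 2-fold lower (27.4%). In Proliferative cells 14 (4.64%) and in Tip cells 10 (5.07%) were at least 2-fold lower.

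**Figure D3:**
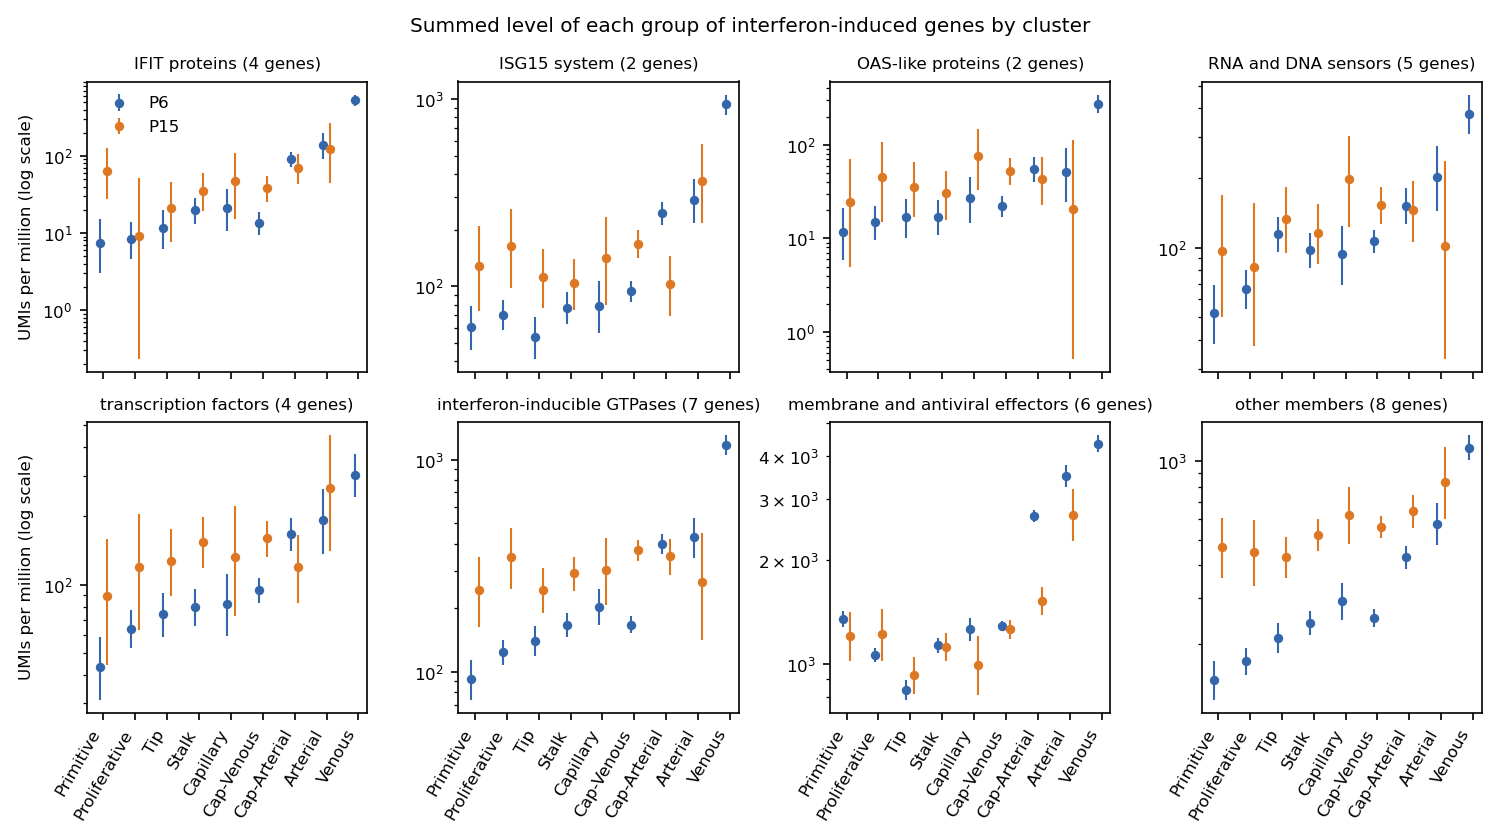
Summed CPM (log scale) of each group of genes in the study's clusters at P6 (blue) and P15 (orange), with exact Poisson 95% intervals, ordered from Primitive to Venous. Clusters with fewer than 10 cells are not drawn, which leaves out the 2 P15 Venous cells. Blue points rise toward Arterial and Venous cells, and in most panels orange points differ less between clusters.

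The groups of genes did not share one profile. For Ifitm3 and Bst2 the level at P6 was 3401 CPM in Arterial cells, near the 4116 of Venous cells. For the IFIT genes it was 137 in Arterial and 531 in Venous cells, and for the inducible GTPases 430 and 1170. Ifitm3 and Bst2 were thus nearly as high in Arterial as in Venous cells, while the IFIT and GTPase genes were not. Ifi27 was nearly level over Capillary, Cap-Venous, Cap-Arterial, Arterial and Venous cells, between 86.1 and 102 CPM. Lgals3bp stood at 70.9 in Arterial and at most 20.3 in any other cluster.

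Apart from the 2 Venous cells, the clusters lay closer together at P15. The set had 4686 CPM in 11 Arterial cells (4100 to 5332), 2992 in 68 Cap-Arterial cells and between 2027 and 2765 in the other clusters apart from Venous. In Cap-Arterial cells none of 23 genes was at least 2-fold higher than in the other labelled cells (2.86% of all genes), and in Arterial cells 7 of 23 were (11% of all genes). Both P15 cells labelled Venous had at least 4 core genes, and these 2 cells had 11181 CPM of the set (8794 to 14015). Among the clusters with at least 10 cells, which leaves out Venous, the highest was Arterial for 15 genes, among them Ifit1, Isg15 and Irf7, and Capillary for 10, among them Oasl2, Ifih1 and Samd9l. Arterial was also the lowest for 6 genes and Capillary for 6. In the 11 Arterial cells 1 UMI equals 20.4 CPM, and highest clusters were not counted over all genes. In the 2 Venous cells Ifit1, Isg15 and Irf7 had 5, 4 and 5 UMIs.

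The difference between the ages went in both directions depending on the cluster. In Cap-Venous cells (414 at P6, 134 at P15), 28 of the 34 genes with at least 10 UMIs were higher at P15 (55.5% of all genes), 22 of them with an interval above 1 (16.6%), and only Zbp1 had an interval below 1 (10.1%). In Cap-Arterial cells (162 and 68) 25 of 37 were lower at P15 (45.6% of all genes), of which Isg15, Zbp1, Iigp1, Bst2 and Ifitm3 had an interval below 1 (5 of 37, 7.06% of all genes). The summed level was 1.36-fold at P15 in Cap-Venous cells (1.29 to 1.43) and was 0.708-fold in Cap-Arterial cells (0.658 to 0.762). Without Ifitm3 and Bst2 the Cap-Arterial ratio was 0.967 (0.870 to 1.07). The mix of cells with female (Xist) and male (Y-linked) UMIs, described below, also differed. Of the Cap-Arterial cells 26 had Xist only and 34 Y-linked UMIs only at P6, against 2 and 36 at P15. Those 34 cells had 2446 CPM of the set and 815 of the 36 genes, against 2992 and 1599 in all 68 P15 cells. The part of this mix was not tested. Isg15 went from 74.0 to 135 CPM in Cap-Venous cells and from 208 to 82.6 in Cap-Arterial cells. Samd9l, Ifi35 and Ifi27 had an interval above 1 in Cap-Arterial cells too (3 of 37, 9.75% of all genes).

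At P6 the set was higher in cells with a female mark than in cells with a male mark, and at P15 the levels lay close together, with a direction that depended on the cells used. Xist RNA is made from the inactive X chromosome of female cells, and Ddx3y, Eif2s3y, Kdm5d and Uty lie on the Y chromosome. Cells with UMIs of Xist only numbered 246 at P6 and 96 at P15, those with Y-linked UMIs only 339 and 821, and the rest had neither or both. At P6 the set had 3058 CPM in cells with Xist and 1553 in cells with Y-linked UMIs, a ratio of 1.97 (1.88 to 2.06). At P15 the levels were 2634 and 2836, a ratio of 0.929 (0.872 to 0.989). These are pooled levels, and the median cells lay closer at P6. The median cell with Xist and with Y-linked UMIs had 1793 and 1339 CPM at P6, and 2186 and 2450 at P15. Cells with neither mark had 2586 CPM at P6 (830 cells) and 2752 at P15 (715 cells). Over every barcode the P15 ratio was 1.005, and in P15 Cap-Venous cells it was 1.46 (1.22 to 1.74), from 6 cells with Xist and 69 with Y-linked UMIs. In P15 Capillary cells (7 and 14) it was 0.852 (0.556 to 1.27). The median depth was 5022 and 5351 UMIs at P6, and 3842.5 and 4836 at P15. Female and male cells come from different pups, so the sex of a cell and its pup cannot be told apart.

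The core genes were further apart. At P6 they had 223 CPM in cells with Xist and 37.6 in cells with Y-linked UMIs, a ratio of 5.93 (4.57 to 7.77). At P15 they had 188 and 200, a ratio of 0.939 (0.733 to 1.19). A core UMI was found in 35.4% of P6 cells with Xist and 13.9% of those with Y-linked UMIs. The median P6 cell of either kind thus had none. Without the Venous cells the P6 ratio was 4.36 (3.32 to 5.77). Ifit3 had 38 UMIs in the 246 cells with Xist and 1 UMI in the 339 with Y-linked UMIs. Iigp1 had 33.5 and 3.09 CPM, and Isg15 had 156 and 30.9, so both a GTPase and the modifier followed the IFIT genes. Of the 33 genes with at least 20 UMIs at P6, 22 were at least 2-fold higher in cells with Xist (2.77% of all genes) and none was lower (1.17%). Without the Venous cells 17 of 32 were at least 2-fold higher (2.92%). The interval lay above 1 for 33 of all 38 (28 without the Venous cells), a count not made over all genes. Ifi27 (ratio 1.10) and Ifi35 (ratio 1.12) had intervals that include 1. At P15 none of 38 was at least 2-fold higher (3.55% of all genes) and 6 were lower (6.69%). Among the P6 cells with at least 4 core genes, 16 had Xist only and 1 had Y-linked UMIs only, against 2 and 34 at P15. Of the 42 P6 Venous cells, 15 had Xist only and 0 had Y-linked UMIs only.

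The difference was also present inside several clusters. In P6 Cap-Arterial cells the core genes had 554 CPM in 26 cells with Xist and 60.6 in 34 cells with Y-linked UMIs (ratio 9.14, 4.82 to 19.1). In Arterial cells 27 core UMIs were counted in 7 cells with Xist and 0 in 13 cells with Y-linked UMIs. Proliferative cells had 98.7 and 19.3 (ratio 5.12, 2.45 to 12), and Cap-Venous cells 129 and 49.7 (ratio 2.59, 1.69 to 4.0). In Tip, Stalk and Capillary cells the intervals of the ratio include 1. In P6 cells with Y-linked UMIs alone, the set had 2446 CPM in Cap-Arterial and 2771 in Arterial cells, against 1596 in Cap-Venous and 1316 in Tip cells, so the set was higher on the arterial side there as well. This order came mostly from Ifitm3 and Bst2, which gave 2113 of the 2771 CPM in Arterial cells. The other 36 genes had 815 (689 to 958) in Cap-Arterial, 657 (474 to 889) in Arterial, 605 (553 to 660) in Cap-Venous and 564 in Tip cells, and no core UMI was counted in Arterial cells.

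**Figure D4:**
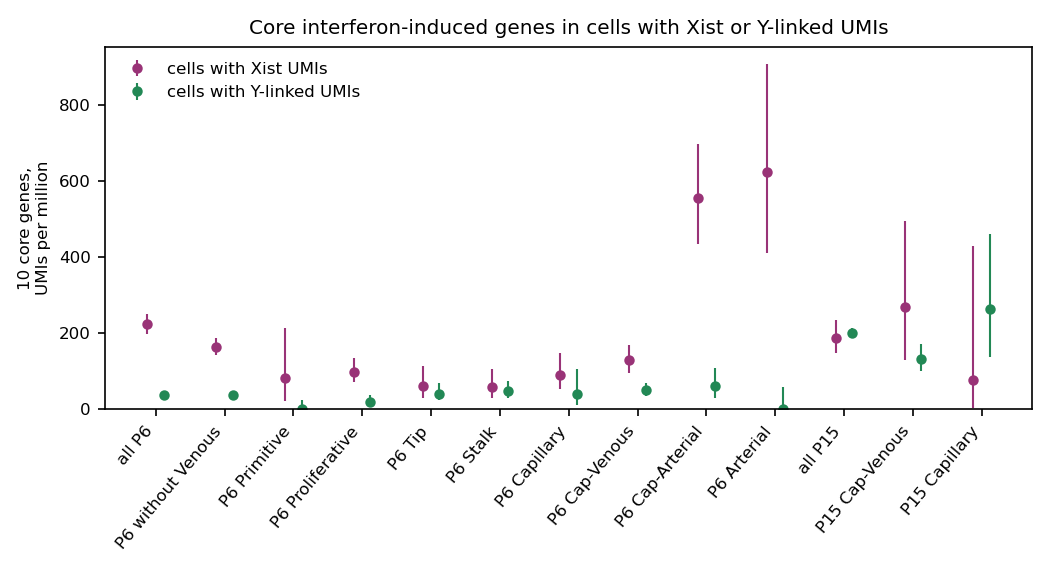
Summed CPM of the 10 core genes in cells with Xist UMIs only (purple) and with Y-linked UMIs only (green), for all kept cells and for clusters with at least 5 cells of each kind, with exact Poisson 95% intervals. At P6 purple lies above green in every cluster drawn, with intervals that overlap in Tip, Stalk, Capillary and Primitive cells, and at P15 the points for all cells lie at 188 and 200, with overlapping intervals in both clusters drawn.

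Since the share of cells with Xist differed between the libraries, the ages were also compared within each kind of cell, a comparison added after the data were seen. In cells with Y-linked UMIs the set had 1553 CPM at P6 and 2836 at P15 (ratio 1.83, 1.75 to 1.90), and the core genes 37.6 and 200 (ratio 5.32, 4.19 to 6.86). In cells with Xist the set had 3058 and 2634 (ratio 0.861, 0.805 to 0.922), and the core genes 223 and 188 (ratio 0.843, 0.647 to 1.09). Without the Venous cells the ratios in cells with Xist were 0.962 (0.897 to 1.03) for the set and 1.15 (0.870 to 1.5) for the core genes. In cells with Xist, Ifitm3 and Bst2 together had a ratio of 0.655 (0.591 to 0.723). The summed level of the other 36 genes was higher at P15 in both kinds of cell. Its ratios were 2.92 (2.74 to 3.12) in cells with Y-linked UMIs and 1.13 (1.03 to 1.24) in cells with Xist. Single genes of the 36 went both ways in cells with Xist. Ifi27 and Ifi35 had intervals above 1 (ratios 2.32 and 2.24), and Zbp1 and Iigp1 had intervals below 1 (ratios 0 and 0.145). Of 32 genes in cells with Y-linked UMIs, 28 were at least 1.5-fold higher at P15 (19.6% of all genes) and none was lower (10.2%). In cells with Xist, 5 of 23 were higher (16.1%), namely Gbp2, Gbp3, Ifi27, Ifi35 and Samd9l, and 3 were lower (15.1%), namely Bst2, Ifi47 and Irgm1. Without the Venous cells these counts were 7 (16.3%) and 1 (15.4%) of 16.

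Single genes differed in size and direction between the kinds of cell. Isg15 went from 30.9 to 115 CPM in cells with Y-linked UMIs (ratio 3.73, 2.85 to 4.96) and from 156 to 136 in cells with Xist (ratio 0.873, 0.638 to 1.18). Iigp1, lower at P15 over all cells, went from 3.09 to 14.7 in cells with Y-linked UMIs (ratio 4.76, 2.06 to 13.5) and from 33.5 to 4.87 in cells with Xist (ratio 0.145, 0.0171 to 0.557). Ifitm3 and Bst2 were 1.20-fold and 1.31-fold higher at P15 in cells with Y-linked UMIs and 0.672-fold and 0.596-fold in cells with Xist. Gbp2 was higher in both kinds of cell, with ratios of 7.72 (4.80 to 13.2) and 2.65 (1.47 to 4.71). Of 33 genes with at least 20 UMIs in each kind of cell, 32 had the larger ratio in cells with Y-linked UMIs (53.1% of all genes), and Ifi35 was the exception.

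**Figure D5:**
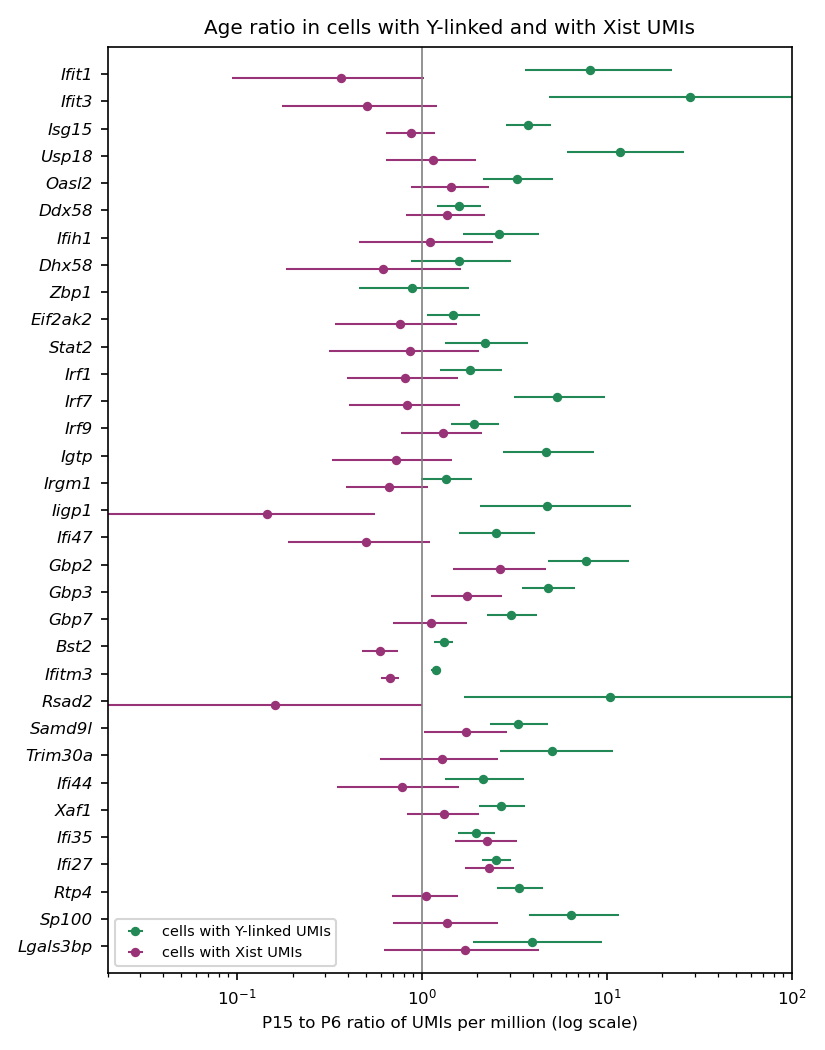
P15 to P6 ratio of CPM (log scale) for the 33 genes with at least 20 UMIs in each kind of cell, in cells with Y-linked UMIs (green) and with Xist UMIs (purple), with conditional binomial 95% intervals cut off at the axis limits. A ratio of 0 (Zbp1 in cells with Xist) is not drawn. Green lies to the right of purple for every gene drawn in both colours but Ifi35.

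The wider pathway was read from lists of genes that are not among the 38. None of 7 interferon genes (Ifnb1, Ifna2, Ifna4, Ifng, Ifnk, Ifnl2, Ifnl3) had a row in either table. Of 5 receptor genes with rows, 4 were at least 1.5-fold higher at P15 (18.8% of all genes): Ifnar1 (71.5 and 109 CPM), Ifnar2 (55.0 and 101), Ifngr1 (91.4 and 144) and Il10rb (80.3 and 187). Ifngr2 had 109 and 104. Of 7 sensor and adaptor genes, none was at least 1.5-fold higher at P15 (18.8% of all genes) and 3 were lower (11.8%). These were Tlr3, Tlr4 and Tmem173 (STING), with ratios of 0.558, 0.610 and 0.614. Of 7 kinase and factor genes, 2 were at least 1.5-fold higher, Jak2 (1.67) and Irf2 (1.56), and 1 was lower, Jak1 (0.630). Of 4 inhibitor genes, only Socs3 (2.25) was past this limit.

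Of 27 other induced genes with enough UMIs, 10 were at least 1.5-fold higher at P15 (18.8% of all genes) and 3 lower (11.8%), and their median ratio was 1.35 against 1.09 for all genes. The higher ones included the Gbp2 relatives Gbp4, Gbp5 and Gbp9 (ratios 1.70, 2.80 and 2.40), Ifi203 (3.34), Slfn5 (2.33) and Ly6e (2.59). The lower ones were the GTPase genes Tgtp1 (0.355) and Tgtp2 (0.293), which are known near copies, so that the split between them is uncertain, and the immunoproteasome gene Psmb9 (0.649). Gbp6, with too few UMIs to be counted (12 at P6 and 1 at P15), was lower at P15, unlike the other 3 relatives of Gbp2. In P6 Venous cells 20 of 24 such genes were at least 2-fold higher (4.73% of all genes), as were 5 of the 6 genes of the MHC class I list. Over all cells 3 of those 6 were at least 1.5-fold lower at P15, namely H2-K1, B2m and Tap1 with ratios of 0.461, 0.589 and 0.565. The other 3, H2-D1, Tap2 and Tapbp, were higher, with ratios of 1.13, 1.63 and 1.495. The direction of the summed MHC class I level depended on the cells used. Its P15 to P6 ratio was 1.51 (1.44 to 1.58) in cells with Y-linked UMIs and 0.577 (0.533 to 0.624) in cells with Xist. It was 1.04 (0.981 to 1.11) in Cap-Venous cells and 0.551 (0.507 to 0.597) in Cap-Arterial cells.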

How the data were processed

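Endothelial cells of P6 and P15 retinas were profiled by droplet single-cell RNA sequencing, 1 library for each age. The authors deposited raw UMI counts of genes by cell barcodes, 13958124 in 1984 barcodes at P6 and 11589641 in 2141 at P15. Seurat 3.0 is named in the submitters' processing notes, and the aligner of these counts is not given in the sources used here. Rows of the same symbol were added. The filter kept barcodes with 200 to 3500 genes and up to 5% mitochondrial UMIs, and dropped those with counts of Cd63, Hbb-bt or Neurod1. Cluster labels were taken from the study's source data. Cluster values used every labelled cell, including 161 at P6 and 29 at P15 that did not pass this filter. No doublet caller was run. The upper gene limit was the only guard among the kept cells and did not apply to the cluster values. Both Xist and Y-linked UMIs were found in 9 kept P6 cells and 12 kept P15 cells. Shares and spread were also computed after thinning each cell to 3000 UMIs, which left out 179 P6 and 481 P15 cells as too shallow.

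Levels (CPM) are UMIs of a gene per 1000000 UMIs of the cells pooled. Intervals at 95% are exact Poisson (levels), conditional binomial (ratios) and Clopper-Pearson (shares). A gene entered a comparison with at least 50 UMIs over both sides, or 20 where stated, and counts use 1.5-fold between ages and 2-fold between cells. No p-value can be had from 1 library for each age. Members with at least 100 UMIs over the kept cells of both libraries, 34 of the 38, were described with values, the other 4 mainly by range and count, and pathway genes were taken from lists by function. Members, lists and comparisons were chosen with earlier results of these data known. Gene positions are from GENCODE on GRCm38, and promoter sequences from RefSeq on GRCm38.p6. The scripts were tested on simulated data and used Python 3.11.15, numpy 2.4.6, scipy 1.17.1, pandas 2.3.3 and matplotlib 3.10.9. Alternative cell filters, thinning, folds and count minimums were tried.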

Additional observations from a re-analysis of the deposited data

Results flagged for a closer look

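The comparison between cells with Xist and cells with Y-linked UMIs differed between the 2 ages. For the 38 genes the ratio of cells with Xist to cells with Y-linked UMIs was 1.97 at P6 and 0.929 at P15, and for the 10 core genes it was 5.93 and 0.939. The P15 direction turned over every barcode (1.005) and in Cap-Venous cells (1.46, 1.22 to 1.74). The comparison between the ages also differed between the kinds of cell. For the 38 genes the ratio of P15 to P6 was 1.83 in cells with Y-linked UMIs and 0.861 in cells with Xist, and for the core genes it was 5.32 and 0.843, the latter with an interval that includes 1 (0.647 to 1.09). Without Ifitm3 and Bst2 the summed level of the other 36 genes was higher at P15 in both kinds of cell. Its ratios were 2.92 and 1.13 (1.03 to 1.24), and in cells with Xist single genes of the 36 went both ways. With 1 library for each age, neither difference was tested.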

How the results depend on the processing

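Of 58 alternatives, 36 left the value or count near the one reported, 20 moved it and 2 turned its direction, and the causes were not tested. The P15 to P6 ratio of the 38 genes (1.17) was 1.34 over every barcode, 1.28 with no upper limit on genes per cell, 1.25 without Venous cells, 1.14 as a mean over cells and 1.65 without the 5 genes with most UMIs (Ifitm3, Bst2, Ifi27, Isg15 and Ifi35). In alternatives chosen after seeing the data it was 1.83 in cells with Y-linked UMIs and 0.861 in cells with Xist. The 20 genes at least 1.5-fold higher at P15 became 9 at 2-fold (7.25% of all genes) and 5 in cells with Xist (16.1%). The 3 lower became 1 over every barcode (14.8%) and 0 in cells with Y-linked UMIs (10.2%). The Venous ratio (4.34) was 6.72 without those 5 genes and 3.44 among cells with Xist. Cells with at least 4 core genes (3.09% at P6, 3.17% at P15) were 5.99% and 6.10% at 3 genes, 2.27% and 1.49% at 5 genes, and 1.28% and 1.68% after thinning. The ratio of cells with Xist to cells with Y-linked UMIs at P6 (1.97) was 1.76 without Venous cells and 1.88 over every barcode, and at P15 (0.929) it was 1.005 over every barcode. The number of labelled cells limits the clusters at P15, where 11 Arterial and 2 Venous cells were labelled and 1235 kept cells had no label. No paired analysis was possible because each age has 1 library.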
